A study of Mus musculus with 42 samples.

Results

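The loci of 7 transcription factor genes of naive pluripotency were examined for peaks of SOX2, β-catenin and LEF1, namely Klf2, Klf4, Klf5, Esrrb, Tfcp2l1, Zfp42 and Tbx3. The genes were taken by name, and a locus was the annotated gene body in mm10 extended by 10 kb on both sides. They are 7 of 21938 protein-coding genes annotated on the main chromosomes. No other protein-coding gene body reached into any of the 7 windows, which ranged from 22.6 kb (Klf2) to 180.5 kb (Esrrb).

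Chromatin immunoprecipitation with sequencing was performed on cells differentiated from mouse embryonic stem cells for 72 h, with 3 biological replicates for each of 10 combinations of antibody, genotype and treatment. All cells were of the HM1 strain (129) and received bFGF at 10 ng/ml and LGK974, a drug that blocks secretion of WNT proteins, at 5 uM. Wild-type (WT) cells, cells lacking Cdx1, Cdx2 and Cdx4 (CdxKO) and cells lacking T, also called Brachyury (T/BraKO), received CHIR99021 (CHIR), an inhibitor of GSK3 that stabilises β-catenin, for the last day. A further WT group immunoprecipitated for SOX2 had no CHIR (noCHIR). The mutants were separate cell lines, so the effect of a genotype cannot be told apart from that of its line. All samples carried the same experiment label, and the lists hold no expression values, so neither the deletions nor the cell identity could be checked here.

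Naive pluripotency is the state of the pre-implantation epiblast, which embryonic stem cells keep in culture. Its network of transcription factors includes the Krüppel-like factors KLF2, KLF4 and KLF5, the orphan nuclear receptor ESRRB, the CP2 family factor TFCP2L1, the zinc finger protein ZFP42 (REX1) and the T-box factor TBX3. Several of these genes are known to respond to WNT signalling through relief of TCF7L1 repression, and they are switched off as cells move to the post-implantation epiblast. SOX2 acts both in pluripotent and in neural cells, whereas β-catenin is brought to DNA by TCF/LEF factors such as LEF1.

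Each library was a list of peaks with a fold enrichment and a significance, from 26940 to 1008922 peaks long. Because the lengths differed so much, the 20000 most significant peaks of each library were compared and a peak was described by its rank, where rank 1 is the most significant. The score used in tests was the log2 ratio of a rank just past the last of these to the rank of the best peak, so 0 means no peak among the 20000 best and a difference of 1 is a 2-fold change in rank. Libraries differed in how well replicates resembled each other. The share of merged regions held in common by pairs of replicates (Jaccard index) averaged 0.371 for SOX2 in WT noCHIR but 0.0886 in WT CHIR, and was 0.244 in CdxKO and 0.218 in T/BraKO. For β-catenin it averaged 0.206 to 0.298 by genotype, and for LEF1 0.0233 to 0.041. The SOX2 WT CHIR libraries and all LEF1 libraries therefore stood apart as the least concordant, and their part in the results below was not tested beyond leaving out 1 library at a time.

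The sequences of the regions that the results turn on are given first, as the plus strand of mm10 (GRCm38.p6), from 100 bases before to 100 bases after the summit. For the Klf2, Esrrb and intronic Tfcp2l1 regions this is the median SOX2 summit, and for the others the median β-catenin summit. Capitals mark matches, on either strand, to the following letters. For SOX these were CCATTGT and, as the other form, CCTTTGT. For TCF/LEF they were CTTTGAA and, as the other form, CTTTGAT. For CDX they were CAATAAA in one form, CCATAAA in another, TAATAAA in another and TCATAAA in the last. For T-box factors they were AGGTGTGA, for the octamer ATGCAAAT and for ESRRB AAGGTCA.
Klf2 upstream region, chr8:72316133-72316333: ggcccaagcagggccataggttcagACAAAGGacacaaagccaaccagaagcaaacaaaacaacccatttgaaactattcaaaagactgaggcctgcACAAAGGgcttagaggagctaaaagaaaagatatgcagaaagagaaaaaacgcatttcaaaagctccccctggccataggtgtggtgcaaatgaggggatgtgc
Klf2 distal region, chr8:72311174-72311374: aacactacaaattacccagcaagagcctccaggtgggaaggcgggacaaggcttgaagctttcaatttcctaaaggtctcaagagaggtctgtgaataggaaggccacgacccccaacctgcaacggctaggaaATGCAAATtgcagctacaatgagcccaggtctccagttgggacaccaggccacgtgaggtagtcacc
Klf4 promoter region, chr4:55532498-55532698: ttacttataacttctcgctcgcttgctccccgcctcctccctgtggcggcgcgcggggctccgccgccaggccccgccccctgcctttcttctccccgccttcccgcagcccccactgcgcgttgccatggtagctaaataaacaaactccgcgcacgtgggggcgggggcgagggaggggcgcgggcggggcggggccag
Klf5 downstream region, chr14:99324564-99324764: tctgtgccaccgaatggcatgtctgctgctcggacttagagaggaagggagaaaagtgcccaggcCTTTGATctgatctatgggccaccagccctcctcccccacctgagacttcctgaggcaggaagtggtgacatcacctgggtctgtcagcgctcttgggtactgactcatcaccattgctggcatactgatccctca
Esrrb intronic region, chr12:86498895-86499095: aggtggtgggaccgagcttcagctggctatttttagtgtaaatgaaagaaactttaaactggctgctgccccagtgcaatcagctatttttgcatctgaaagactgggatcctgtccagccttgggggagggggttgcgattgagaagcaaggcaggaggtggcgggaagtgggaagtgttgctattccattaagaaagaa
Tfcp2l1 upstream region, chr1:118625580-118625780: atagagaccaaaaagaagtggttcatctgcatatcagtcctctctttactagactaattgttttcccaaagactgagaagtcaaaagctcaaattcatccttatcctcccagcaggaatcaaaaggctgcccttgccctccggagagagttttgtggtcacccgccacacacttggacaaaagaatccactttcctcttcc
Tfcp2l1 intronic region, chr1:118648111-118648311: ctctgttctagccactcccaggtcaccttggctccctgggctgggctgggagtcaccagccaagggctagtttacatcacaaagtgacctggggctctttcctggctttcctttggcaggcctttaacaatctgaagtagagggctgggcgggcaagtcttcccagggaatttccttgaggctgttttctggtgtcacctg
The Klf2 upstream region held 2 matches to the SOX letters, one of them centred on the summit itself and the other 72 bp away. It was the only 1 of the 13 member SOX2 regions in at least 3 libraries to hold them (7.69%), against 23.7% of all SOX2 summit windows on average over the 12 libraries. The distal Klf2 window held the octamer letters 38 bp from its summit. They were in 3 of the 13 member SOX2 regions (23.1%), and in 1 of 13 within 50 bp of the summit. Over all SOX2 windows the shares were 4.01% and 2.69%. The Klf5 window held TCF/LEF letters 32 bp from the β-catenin summit. They were in 2 of the 11 member β-catenin regions in at least 3 libraries (18.2%), against 29.6% of all β-catenin windows. The other 4 windows shown held none of these letters. The shares over all windows also count peaks found in fewer than 3 libraries, unlike those over the member regions, so the sets differ. A match describes the sequence only.

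Klf2, which encodes a zinc finger activator able to sustain naive self-renewal, was the member at which SOX2 binding changed. The change lay in a region of 614 bp (chr8:72316069-72316682), intergenic, with its summit 2.8 kb upstream of the annotated Klf2 start. In WT cells without CHIR its peak ranked 124, 97 and 235 in the 3 libraries, with fold enrichments of 62.9, 68.2 and 25. In WT cells with CHIR it ranked 2928, 75710 and 28467 in the full lists, with fold enrichments of 13.6, 5.02 and 5.92, so only replicate 1 placed it among the 20000 best. The groups did not overlap by rank or by fold enrichment, but the share of all regions that separate in this way is not given here. The mean fold enrichment was 52 ± 23.6 (SD, n = 3) without CHIR and 8.18 ± 4.72 (SD, n = 3) with it. The score differed by -6.22 (SE 0.78, CHIR minus noCHIR), with an adjusted p of 0.000598 by limma with Benjamini-Hochberg correction over 20099 SOX2 regions. Of these regions 31, or 0.154%, had a difference as low, and the median difference over all of them was -0.28. The WT CHIR libraries were also the least concordant of the SOX2 groups, as given above, and the part of this in the difference was not tested.

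**Figure D1:**
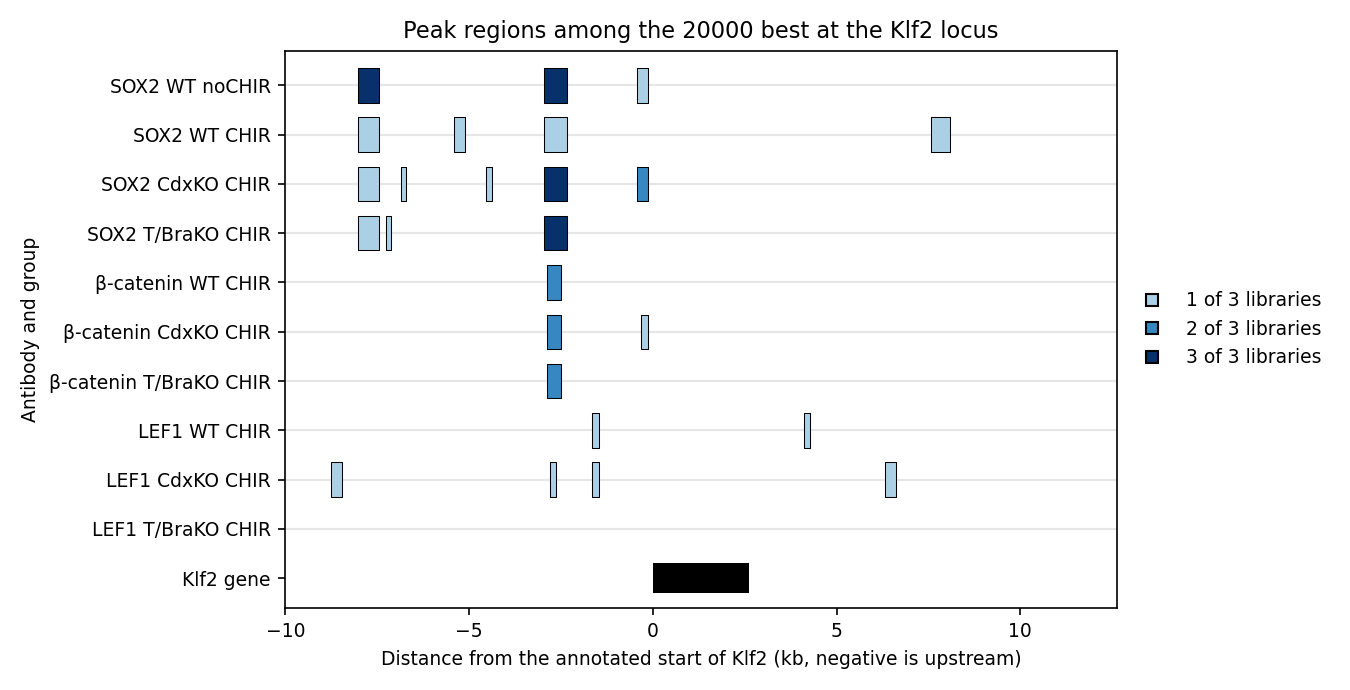
Regions with a peak among the 20000 best at the Klf2 locus, by distance from the Klf2 start in kb (horizontal axis) and by antibody and group (rows); shading gives how many of the 3 libraries held the region and the black bar is the gene. The SOX2 region 2.8 kb upstream was held by 3 of 3 libraries in every SOX2 group except WT CHIR, where 1 held it.

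Both mutant lines, which were profiled only with CHIR, had a SOX2 peak at this region among the 20000 best in every library. It ranked 1506, 385 and 1755 in CdxKO cells, with a mean fold enrichment of 18.6 ± 10.3 (SD, n = 3). It ranked 3558, 2697 and 2902 in T/BraKO cells, with a mean of 10.8 ± 3.06 (SD, n = 3). The CdxKO ranks were all higher in the list than any WT CHIR rank, while the T/BraKO ranks overlapped with that of WT CHIR replicate 1. The share of all regions that separate by rank in this way is not given here. Neither difference passed the test, at -3.39 (SE 0.78, limma adjusted p = 0.0854) for WT minus CdxKO and -1.80 (SE 0.78, limma adjusted p = 0.528) for WT minus T/BraKO. β-catenin had a region inside it (chr8:72316150-72316522), which ranked 8118, 7190 and 51581 in WT cells. The ranks were 8671 and 3085 in CdxKO replicates 1 and 2 with no peak in replicate 3, and 73463, 3353 and 8446 in T/BraKO cells, so all 3 genotypes overlapped.

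A second Klf2 region, 567 bp long (chr8:72311015-72311581) and 7.8 kb upstream, was also called. Its nearest annotated protein-coding start was that of Gm10282, 6.0 kb away, and not that of Klf2. It ranked 7386, 7085 and 3152 without CHIR and 234024, 31907 and 19153 with it. The difference was -1.85 (SE 0.51, limma adjusted p = 0.0353), and 11.9% of all SOX2 regions had a difference as low. This call was lost when any 1 of the 6 libraries was left out, with limma adjusted p from 0.0671 to 0.145. The third Klf2 region tested for SOX2, 243 bp upstream of the start (chr8:72318600-72318887), was among the 20000 best in 3 of 12 libraries. At the level of the whole locus Klf2 differed by -5.04 (SE 0.82, limma adjusted p = 0.00594), and it was the 1 member called of 6 tested. That call was lost on log2 fold enrichment (-2.25, SE 0.63, limma adjusted p = 0.105), and no member was called when the gene body was not extended. The best SOX2 peak of the locus was not the same region in every WT CHIR library. In replicate 2 it ranked 1785 and lay outside the 3 tested regions. In replicate 3 it ranked 19153 and was the region 7.8 kb upstream. Over all loci 4.80% were called in this comparison (659 of 13731), and over all SOX2 regions 12.9% (2593 of 20099), against 2 of 13 member regions. Most calls were lower with CHIR, as at Klf2: 441 of the 659 loci and 2263 of the 2593 regions. The noCHIR libraries were more concordant than the WT CHIR libraries, and concordant groups contribute more of the tested regions. The part of this in the counts here was not tested. A region was called exclusive where all 3 replicates of either group held it among the 20000 best and no replicate of the opposite group did. None of the 35 member regions seen in these 6 libraries was exclusive, against 4.03% of all regions (2955 exclusive to noCHIR and 111 to CHIR).

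**Figure D2:**
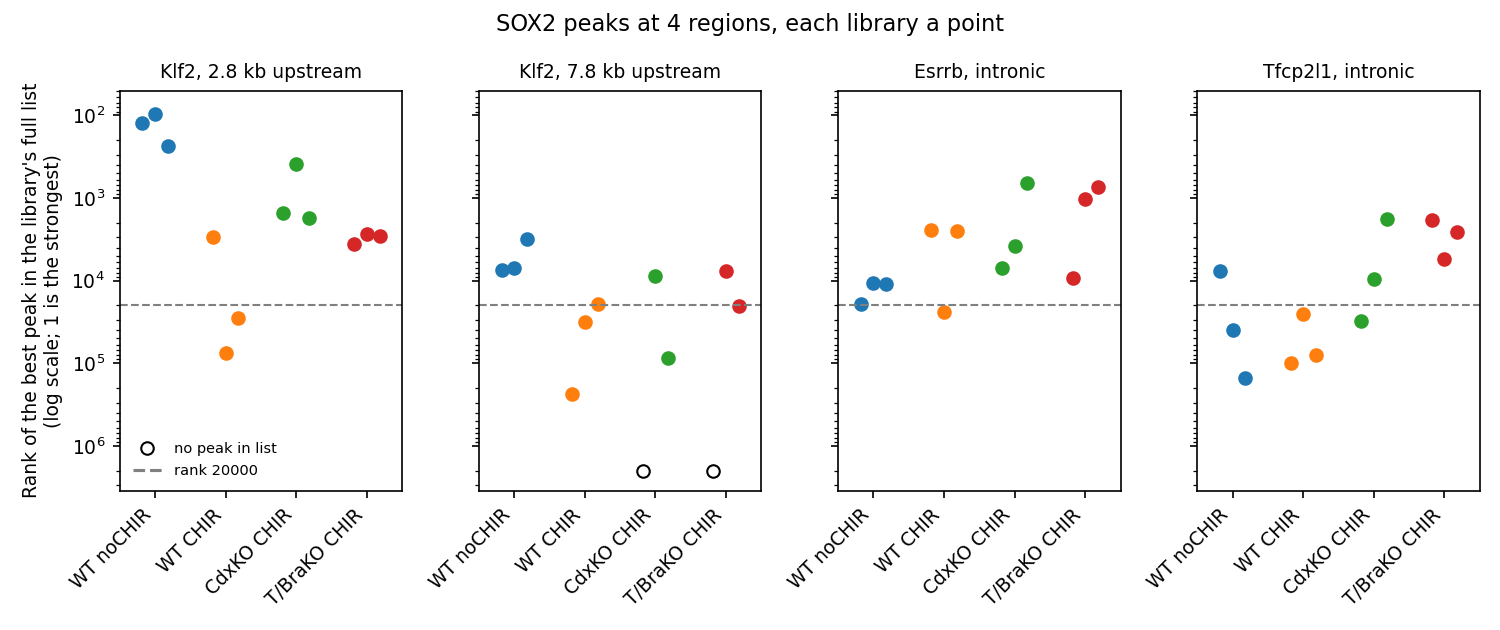
Rank of the best SOX2 peak in the full list of each library (vertical log axis, strongest at the top) at 4 regions, by genotype and treatment; points are single libraries, open circles mark no peak and the dashed line is rank 20000. At the Klf2 region 2.8 kb upstream the WT noCHIR libraries sit between ranks 97 and 235, above all other SOX2 libraries.

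Klf4, which encodes another of the Krüppel-like factors and one of the original reprogramming factors, carried the strongest β-catenin peak of the 7 loci. The region (chr4:55532191-55532735) spans the annotated start of Klf4 on the minus strand, and its summit lay 132 bp upstream. It ranked 333, 664 and 625 in WT, 555, 641 and 841 in CdxKO and 687, 461 and 841 in T/BraKO cells. All 9 libraries thus placed it at rank 841 or better, and the genotypes overlapped. The mean fold enrichment was 40.2 ± 5.92, 32.1 ± 6 and 31.3 ± 10 (SD, n = 3 each) in the same order. SOX2 had a region at the same place (chr4:55532234-55532712) among the 20000 best in 8 of 12 libraries. Its ranks were 7885, 27477 and 21079 in WT noCHIR and 166613, 1116 and 6412 in WT CHIR, so these groups overlapped. LEF1 reached the 20000 best there in 3 of 9 libraries (chr4:55532496-55532829), with ranks of 8398 and 17317 in WT replicates 1 and 2 and 4001 in CdxKO replicate 2.

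Klf5, whose product acts with KLF2 and KLF4 in self-renewal, had its shared region 9.6 kb past the end of the gene. β-catenin was found there (chr14:99324392-99325109) in all 9 libraries, and the region is intergenic. It ranked 4874, 6082 and 5212 in WT, 2143, 7821 and 7808 in CdxKO and 6975, 2893 and 12714 in T/BraKO cells, so the genotypes overlapped. SOX2 (chr14:99324536-99325329) placed a peak among the 20000 best in 6 of 12 libraries, of which CdxKO gave all 3, at ranks 5890, 7205 and 11703. Replicate 3 of the other groups ranked 16316 in WT noCHIR, 5566 in WT CHIR and 8856 in T/BraKO cells. WT minus CdxKO did not pass the test (-0.72, SE 0.54, limma adjusted p = 0.706). LEF1 (chr14:99324455-99324783) placed a peak among the 20000 best in 4 of 9 libraries. The best LEF1 rank at any of the 7 loci was here, 438 in CdxKO replicate 3. The other LEF1 ranks among the 20000 best were 15739 in WT replicate 2, 3847 in CdxKO replicate 2 and 9023 in T/BraKO replicate 3.

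**Figure D3:**
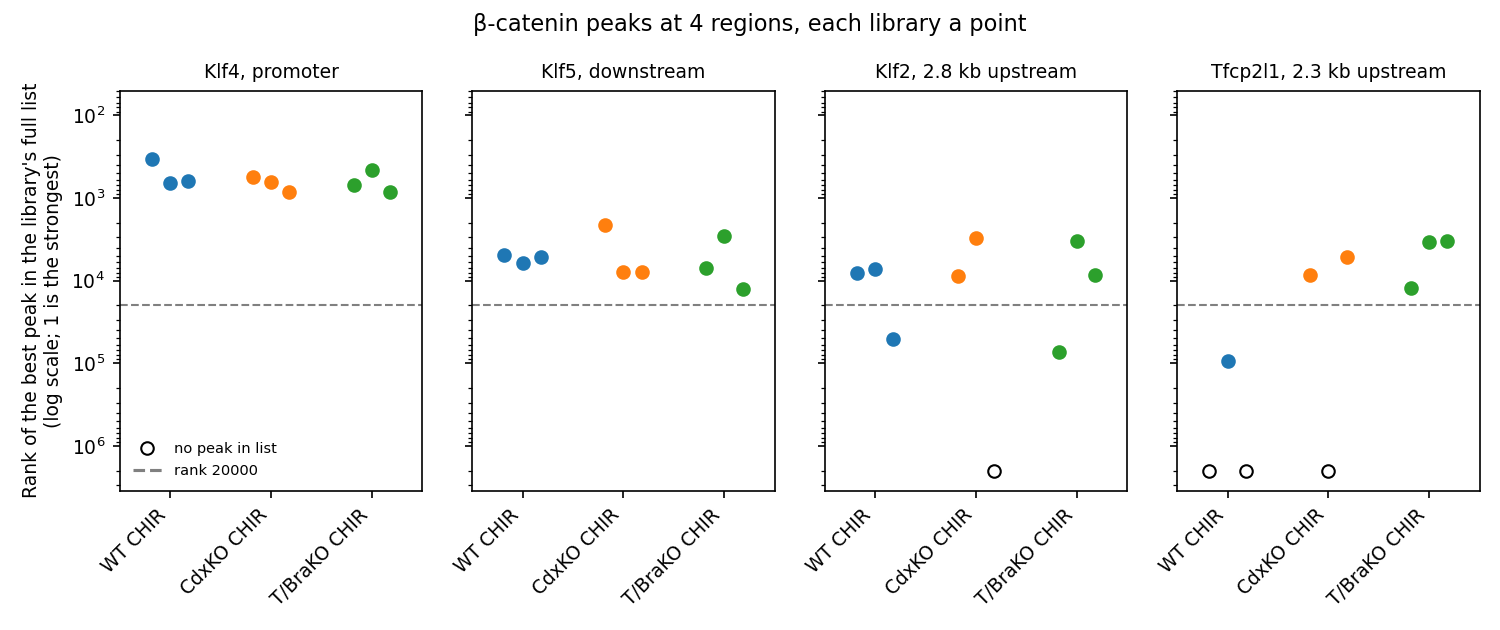
Rank of the best β-catenin peak in the full list of each library (vertical log axis, strongest at the top) at 4 regions, by genotype; points are single libraries, open circles mark no peak and the dashed line is rank 20000. The Klf4 promoter stays between ranks 333 and 841 in all 9 libraries, and the Tfcp2l1 region is above the line in T/BraKO and not in WT cells.

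Esrrb, which encodes an orphan nuclear receptor of the self-renewal network, was bound in its introns. SOX2 was found among the 20000 best in 11 of 12 libraries at an intronic region (chr12:86498708-86499390), 28.9 kb from the nearest annotated Esrrb start. It ranked 19340, 10759 and 10845 in WT noCHIR and 2472, 24151 and 2491 in WT CHIR. The ranks were 7084, 3787 and 655 in CdxKO and 9300, 1018 and 744 in T/BraKO cells, so the WT CHIR libraries overlapped with every other group. β-catenin overlapped this region (chr12:86498853-86499321) in 6 of 9 libraries. A β-catenin region 169 bp upstream of an internal Esrrb start (chr12:86421287-86421597) ranked 5767, 1753 and 7940 in T/BraKO cells. In WT it ranked 15875 in replicate 1 and 59285 in replicate 3, with no peak in replicate 2. CdxKO ranked 40569 in replicate 1 and 6673 in replicate 3, the latter within the T/BraKO range, with no peak in replicate 2. The difference of WT minus T/BraKO did not pass the test (-2.10, SE 0.64, limma adjusted p = 0.101).

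Tfcp2l1 held the only member regions that were exclusive to either group of a comparison, 1 for β-catenin and 1 for SOX2, both in T/BraKO against WT. For β-catenin this was an intergenic region 2.3 kb upstream of the start (chr1:118625435-118625844). It ranked 12321, 3391 and 3328 in T/BraKO cells, and in WT it was found only in replicate 2, at rank 93801 of the full list. In CdxKO cells it ranked 8647 and 5213 in replicates 1 and 3 with no peak in replicate 2. For SOX2 it was an intronic region (chr1:118648014-118648485), which ranked 1835, 5404 and 2598 in T/BraKO and 99857, 25425 and 78928 in WT CHIR cells. Every WT CHIR library thus had a peak in its full list. In CdxKO cells it ranked 31241, 9571 and 1810, the last of them better than any T/BraKO library, and in WT noCHIR 7573, 39983 and 150867. By limma neither difference passed, at -1.95 (SE 0.63, adjusted p = 0.13) for β-catenin and -2.76 (SE 0.78, adjusted p = 0.215) for SOX2.

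Tbx3, which encodes a T-box repressor, had a SOX2 region in an intron (chr5:119679710-119680502) among the 20000 best in 9 of 12 libraries. It ranked 4125, 7512 and 1983 in WT noCHIR, and 10342 and 4909 in WT CHIR replicates 1 and 3, with no peak in replicate 2. The ranks were 4790, 3649 and 126420 in CdxKO and 10429, 71496 and 3925 in T/BraKO cells. β-catenin reached the 20000 best in 3 of 3 T/BraKO libraries at a further intronic region (chr5:119681134-119681721), at ranks 9064, 7453 and 13312. WT replicate 3 ranked 11771 there, within the T/BraKO range, and replicate 2 ranked 40294, with no peak in replicate 1. CdxKO ranked 44032 in replicate 1, with no peak in replicates 2 and 3. The difference of WT minus T/BraKO did not pass the test (-0.80, SE 0.47, limma adjusted p = 0.45). Zfp42, the gene of the widely used naive marker REX1, was nearly empty. Of all 30 libraries 1 had a peak among the 20000 best at its locus, SOX2 CdxKO replicate 1 at rank 12284. Over all protein-coding loci 10.1% had as few libraries with a peak, and full lists held 0 to 11 peaks at Zfp42. It did not enter the tests, which needed a peak in at least 3 libraries of the factor.

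**Figure D4:**
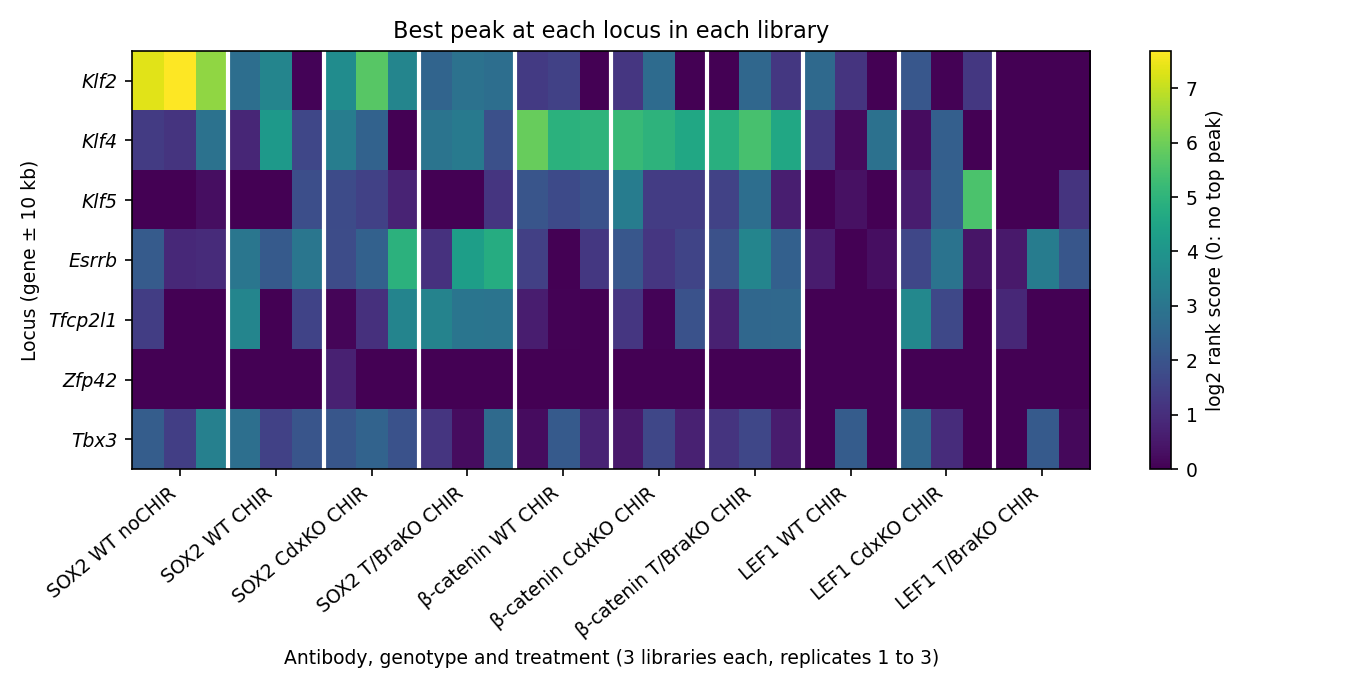
Score of the best peak (colour, log2 scale) at each of the 7 loci (rows) in each of the 30 libraries (columns, 3 per group). Klf2 is brightest in SOX2 WT noCHIR, Klf4 in the 9 β-catenin libraries, and Zfp42 has 1 library above 0.

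Between genotypes no member locus passed the test for any of the 3 proteins. For SOX2, WT minus CdxKO, 0 of 6 members were called by limma, against 0.197% of all loci. An unadjusted p under 0.05 was found for 1 of the 6, and for 1467 of all 13731 loci. No member region of 13 was called, against 0.687% of all regions, and none of 47 was exclusive, against 1.01%. For SOX2, WT minus T/BraKO, 0 of 6 were called, against 0.0583% of loci. None of the 6 had an unadjusted p under 0.05, against 1271 of all 13731 loci. Of the 13 member regions 0 were called, against 0.159% of all regions. Of these 13, 2 had an unadjusted p under 0.05, as did 1824 of all 20099 regions. The Tfcp2l1 intronic region was the 1 exclusive region of 38, against 0.763%.

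For β-catenin, WT minus CdxKO, 0 of 6 loci and 0 of 11 regions were called, none with an unadjusted p under 0.05 by limma. The shares called over the genome were 0.608% of loci and 1.26% of regions. An unadjusted p under 0.05 was found for 1017 of all 11185 loci and 1754 of all 15600 regions. Of 31 member regions 0 were exclusive, against 0.829%. For β-catenin, WT minus T/BraKO, 0 of 6 loci were called and 2 had an unadjusted p under 0.05, Esrrb (-1.69, SE 0.52, limma adjusted p = 0.209) and Tfcp2l1 (-1.73, SE 0.61, limma adjusted p = 0.288). Over all loci 1.98% were called, and 1214 of 11185 had an unadjusted p under 0.05. No member region of 11 was called, against 4.14% of all regions, and 1 of 38 was exclusive, against 1.42%. An unadjusted p under 0.05 was found for 3 of the 11, and for 2451 of all 15600 regions.

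For LEF1, WT minus CdxKO, 0 of 6 loci were called by limma, against 0.0230% of all loci. An unadjusted p under 0.05 was found for 1 of the 6, and for 590 of all 13071 loci. Of 2 member regions tested 0 were called, as were 0% of all 3128 regions, of which 246 had an unadjusted p under 0.05. Of 34 member regions 0 were exclusive, against 0.133%. For LEF1, WT minus T/BraKO, 0 of 6 loci and 0 of 2 regions were called, against 0.0459% of all loci and 0.639% of all regions. None of these had an unadjusted p under 0.05, against 611 of all 13071 loci and 260 of all 3128 regions. Of 28 member regions 0 were exclusive, against 0.121%.

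Regions at the 7 loci were mostly found in few libraries. For SOX2 there were 63 merged regions, of which 13 (20.6%) were in at least 3 of 12 libraries, against 16.4% over the genome. For β-catenin these numbers were 11 of 45 (24.4%, genome 16.2%), and for LEF1 2 of 46 (4.35%, genome 1.92%). Of the 13 such SOX2 regions, 8 (61.5%) overlapped a β-catenin region of the same kind, against 36.6% of all SOX2 regions. Of the 11 β-catenin regions, 8 (72.7%) overlapped a SOX2 region, against 47.2%. Both LEF1 regions, at Klf4 and Klf5, overlapped regions of SOX2 and of β-catenin, as did 57.8% and 88.7% of all LEF1 regions.

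The number of peaks over the 7 loci among the 20000 best averaged 9.33 ± 1.15 for SOX2 in WT noCHIR, 10 ± 4 in WT CHIR, 14.3 ± 3.06 in CdxKO and 12 ± 1.73 in T/BraKO (SD, n = 3 each). For β-catenin each WT library held 10, CdxKO averaged 9 ± 2 and T/BraKO 14.3 ± 1.15 (SD, n = 3). The direction of WT minus T/BraKO depended on the list length, since in full lists the β-catenin means were 57.3 ± 53.9 in WT and 36.7 ± 13.4 in T/BraKO cells (SD, n = 3). LEF1 averaged 5.67 ± 3.06 in WT, 7.67 ± 2.89 in CdxKO and 4.33 ± 1.15 in T/BraKO cells (SD, n = 3 each).

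Of 12 other genes of the pluripotency network, 11 were tested for SOX2 and for β-catenin and 8 for LEF1. None was called by limma in any of the 7 comparisons, and 0 to 2 had an unadjusted p under 0.05 in each. Of 14 paralogues of the members, 2 were called, both for SOX2 with CHIR against noCHIR. Klf9 was lower with CHIR (-2.73, SE 0.68, limma adjusted p = 0.0447) and Klf16 higher (1.73, SE 0.35, limma adjusted p = 0.0199). The Klf9 call was lost when any 1 of the 6 libraries was left out (limma adjusted p from 0.0661 to 0.148), and the Klf16 call when any WT noCHIR library was (limma adjusted p from 0.0611 to 0.0708).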

How the data were processed

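The 30 immunoprecipitated libraries were analysed; the 12 inputs were not analysed here. The authors aligned reads with BWA to mm10 and called peaks in each library with MACS2; which input served as control is not stated in the labels or methods. The deposited lists give fold enrichment (a ratio over local background) and -log10 p-values and q-values. Read totals were not used, so depth is unknown. The -log10 q at rank 20000 ranged from 3.26 to 14.1.

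Peaks were ranked by q, and the 20000 best of each library were assigned to gene bodies (GENCODE M21) extended by 10 kb or merged, at 1 bp of overlap, into regions per antibody. Log2 ranks (1 past 20000 without a peak) were tested with limma 3.58.1 in R 4.3.3, in 1 fit per antibody over loci or regions with a peak in at least 3 libraries, with Benjamini-Hochberg correction at 0.05. Groups with concordant libraries therefore contribute more of the tested regions. The code was tested on simulated data. Alternatives were 5000 best peaks, full lists, log2 fold enrichment, other filters and extensions, a replicate block and leaving out libraries. Letters were searched within 100 bp of summits, or 50 bp as an alternative. Named regions were, per member, that with the best median rank in WT CHIR, those called, and those exclusive to either group; further regions were chosen after their values were seen. The members and gene lists were chosen with earlier results of these data known.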

Additional observations from a re-analysis of the deposited data

How the results depend on the processing

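The Klf2 region 2.8 kb upstream kept its direction and its call for SOX2 with CHIR under every alternative run. Its difference ranged from -7.14 to -5.76 when 1 library was left out (limma adjusted p from 0.000424 to 0.00436) and was -4.31 on log2 fold enrichment (limma adjusted p = 0.0104). The Klf2 locus kept its call except on log2 fold enrichment (-2.25, limma adjusted p = 0.105; 0 members called), and without an extension 0 members were called. Member regions called there fell from 2 to 1 with 5000 best peaks, on log2 fold enrichment and without any 1 library. For SOX2 WT minus CdxKO, 1 region was called without WT CHIR replicate 1, and 0 otherwise.

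Deviations of same-numbered libraries correlated between -0.067 and 0.102, too weakly to decide whether replicate numbers paired the samples. For replicate 3 this correlation was above the highest between a replicate 3 library and a differently numbered one in every comparison. For β-catenin WT minus T/BraKO, for example, it was 0.102 against 0.037. For replicates 1 and 2 it was below the highest of their own pairs with differently numbered libraries in every comparison. For β-catenin WT minus CdxKO that highest was 0.176, between replicates 1 and 2, and so above the 0.096 of replicate 3. With the replicate block 1 member locus, Klf2 (limma adjusted p = 0.00341), and 2 member regions were still called for SOX2 with CHIR, and 0 in the other comparisons. Over all loci the block moved the calls for SOX2 WT minus CdxKO from 27 to 0 and for SOX2 WT minus T/BraKO from 8 to 0.

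In full lists more regions were seen, and counts of the pattern of 3 libraries in one group and 0 in the other changed. Counts are given for the first group, then the second. For SOX2 CHIR minus noCHIR they rose from 0 to 2 and 2 of 361 member regions, against 2693 and 2717 of all 1569599. For SOX2 WT minus CdxKO they rose from 0 to 4 and 3 of 383, against 2408 and 808 of 1622912. For SOX2 WT minus T/BraKO the first rose from 0 to 3 of 364, against 2789 of 1623369. For LEF1 WT minus CdxKO both rose from 0 to 2 of 531, against 1866 and 5512 of 2671427. For LEF1 WT minus T/BraKO the second rose from 0 to 1 of 553, against 5372 of 2848605. With 5000 best peaks both Tfcp2l1 regions lost the pattern (0). Without 1 library these counts lay between 0 and 1, except 0 to 2 for SOX2 CdxKO, 1 to 2 for SOX2 T/BraKO and 1 to 3 for β-catenin T/BraKO. Peak totals moved most in full lists, where the WT minus mutant differences for SOX2 and that for β-catenin WT minus T/BraKO turned from negative to positive and that for LEF1 WT minus T/BraKO from positive to negative. The differences there were 78.67, 69.00 and 84.33 for SOX2, 23.00 and 20.67 for β-catenin and -22.33 and -27.67 for LEF1. The SOX2 WT minus CdxKO difference was -0.33 with 5000 best peaks and with no extension. For β-catenin it was 5.00 (CdxKO) and -1 (T/BraKO) with a 50 kb extension, and -1.67 with 5000 best peaks (T/BraKO). Without 1 library the differences ranged from -6.33 to 2.67 over the 7 comparisons.

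Calls over all loci for SOX2 with CHIR numbered 172 on log2 fold enrichment against 659. Over all SOX2 regions they moved the other way, to 3455 on log2 fold enrichment against 2593. Depth is unknown, and list lengths differed between libraries of the same group.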
